A study of Mus musculus with 12 samples.

Results

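Matrilins are oligomeric proteins of the extracellular matrix, and Ucma is a secreted protein of cartilage that carries many vitamin K-dependent gamma-carboxyglutamate residues. The genes Matn1, Matn2, Matn3, Matn4 and Ucma were chosen by their symbols, with earlier results of these data known. Each symbol was found on 1 row, which gave 5 genes of the 17536 with a value. They were followed across superficial zone (SFZ) and deep zone (DZ) cells of mouse epiphyseal cartilage, across 2 genotypes and across 3 libraries in each of the 4 groups, 12 libraries in all.

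All mice were 5 days old and of C57BL/6 background by the sample records, which the study's methods write as C57BL/6J. R3-Cntl mice were Runx3 fl/fl, with a floxed Runx3 gene and no Cre, and R3-cKO mice were Col2a1-Cre; Runx3 fl/fl, so that both genotypes carried the floxed allele. The Col2a1 promoter drives the recombinase in chondrocytes and leaves Runx3 intact in cells that never expressed it. SFZ cells were released from the ends of the femur and tibia by trypsin and a short collagenase digestion, and DZ cells were freed from the remaining tissue by longer digestion. The methods describe both as cells kept in monolayer culture, and the study's legend names 3 mice per genotype as the source of the SFZ and DZ cells. P-values measure the spread between these libraries.

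Matn1 and Matn3 are known mainly from cartilage, where they form homo-oligomers and mixed oligomers and bind collagen fibrils, aggrecan and Comp. Matn2 and Matn4 occur in a wider range of connective tissues. Matrilins bound to the small proteoglycans decorin and biglycan link the microfibrils of collagen VI to collagen II and aggrecan. Ucma is named for the upper zone of the growth plate, where resting chondrocytes make it.

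Values are FPKM, fragments per kilobase of transcript at a common depth, to which the authors had applied TMM scaling. The unit was inferred from the values. The lowest values of short genes stood near whole multiples of 1 step, with 72.8 to 81.0% of 114 to 144 such values per library within 0.2 of a step. The steps, in FPKM multiplied by the transcript length in kilobases, lay between 0.0348 and 0.0392, which puts the depth of a library at an estimated 25.5 to 28.7 × 10⁶ fragments. By this estimate and the longest annotated coding transcript, the lowest value of Matn4 stood for about 464 fragments (a counting error of 4.64%), the fewest among the members, and the lowest values of Matn2, Matn3, Ucma and Matn1 stood for about 530, 1106, 2817 and 4402 fragments. Runx3, the targeted gene (Entrez gene 12399), was read first as a check of the labels. Runx3 stood at 10.7, 5.98 and 6.65 FPKM in SFZ libraries 1, 2 and 3 of R3-Cntl, against 11.8, 9.07 and 3.42 FPKM in SFZ libraries labelled R3-cKO. Its DZ values were 12.7, 12.7 and 7.66 FPKM for R3-Cntl, against 15.95, 12.7 and 8.14 FPKM for DZ libraries labelled R3-cKO. The group means of Runx3 were thus not lower under the label R3-cKO, at 8.11 against 7.79 FPKM in SFZ and 12.25 against 10.99 FPKM in DZ cells. Its log2 differences were -0.04 and 0.13, and its lowest value stood in SFZ library 3 labelled R3-cKO. The value counts fragments over all exons, so it does not show whether the floxed part was removed, and the genotype directions below follow the labels. Prg4, the lubricin gene, stood at 22.2, 8.38 and 7.13 FPKM in SFZ cells of R3-Cntl, against 6.95, 2.47 and 2.13 FPKM in SFZ libraries labelled R3-cKO. These 2 groups did not overlap (log2 difference -1.45, standard error 0.52, limma adjusted p = 0.9997). Such a separation by label was seen for 2.40% of 11537 genes. The DZ values of Prg4 were 1.39, 1.22 and 1.47 FPKM for R3-Cntl, against 5.72, 1.32 and 2.14 FPKM under the label R3-cKO. There the groups overlapped and the log2 difference had the other sign, at 0.63 (standard error 0.38, limma adjusted p = 0.9986).

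The zone labels were compared with marker genes, whose lists were chosen with earlier results of these data known. All 6 chondrocyte markers were higher in DZ cells and the summed FPKM of that list was 3840 to 12078 in SFZ libraries and 13536 to 28798 in DZ libraries, most of it Col2a1. The 9 fibroblast and tendon markers were all lower in DZ cells (median log2 difference -3.20), and their sum was 3889 to 11051 FPKM in SFZ libraries and 119 to 2156 FPKM in DZ libraries, led by Col1a1. Of the superficial zone markers, 6 of 9 tested were lower in DZ cells and 0 were higher, with Thbs4 at 36.7 to 108 FPKM in SFZ libraries and 0 to 2.49 FPKM in DZ libraries. Prg4 was at 2.13 to 22.2 FPKM in SFZ cells and at 1.22 to 5.72 FPKM in DZ cells (limma adjusted p = 0.0576). SFZ libraries therefore held chondrocyte RNA together with a high level of fibroblast and tendon transcripts.

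Markers of other cell types were read as well. All 7 macrophage markers tested of 8 were lower in DZ cells, and their sum was 7.11 to 168 FPKM in SFZ libraries and 3.71 to 22.7 FPKM in DZ libraries, led by Lyz2, and 3 and 4 of these calls were kept under quantile normalization and median-of-ratios size factors. The count of 7 also depended on single libraries. It was 2 without R3-Cntl SFZ library 2 or R3-Cntl DZ library 1, and 3 without SFZ library 1 or DZ library 2 of R3-Cntl, SFZ library 1 or 3 labelled R3-cKO or any DZ library of that label. Of the 5 endothelial markers, 0 passed the filter on low values, their sum was at most 5.50 FPKM in any library, and Emcn was at 0 in all 6 DZ libraries. Among 5 osteoblast markers tested of 7, 3 were lower in DZ cells and 0 were higher, and Dmp1 and Phex stayed below 1 FPKM in every library. The osteoblast list, which shares its most abundant gene Col1a1 with the fibroblast and tendon list, summed to 1883 to 4836 FPKM in SFZ and 85.8 to 1120.2 FPKM in DZ libraries. In SFZ library 3 labelled R3-cKO this sum exceeded the chondrocyte sum of 3840 FPKM, and in R3-Cntl SFZ library 2 it was 3853 FPKM beside 3904 FPKM. Col1a1 alone was 4793 and 3706 FPKM of these osteoblast sums, and the fibroblast and tendon sums there were 11051 and 7901 FPKM. The 7 skeletal muscle markers summed to 119 FPKM in R3-Cntl SFZ library 2, with Myog at 9.36 FPKM there, and to 5.34 to 19.3 FPKM in the other 11 libraries. The 4 Y-linked genes summed to 12.1 to 52.4 FPKM in 8 libraries and to at most 0.06 FPKM in libraries 2 and 3 labelled R3-cKO of both zones, so sex and genotype cannot be fully told apart.

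Matn1 (Entrez gene 17180, chr4:130500300-130511390 on the forward strand of mm9, 8 exons) encodes matrilin 1, or cartilage matrix protein. Its SFZ values in libraries 1, 2 and 3 were 436, 83.6 and 249 FPKM for R3-Cntl, against 407, 171 and 375 FPKM where the label was R3-cKO. The DZ values of Matn1 were 2134, 863 and 2500 FPKM for R3-Cntl, against 1009, 234 and 2278 FPKM for DZ libraries labelled R3-cKO. Matn1 was the most abundant matrilin in all 12 libraries, and its DZ mean of 1503 FPKM (SD 923, n = 6) ranked 18 among all genes. The values of 5 of 6 DZ libraries stood above the highest SFZ value, and DZ library 2 labelled R3-cKO stood within the SFZ range.

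Matn3 (Entrez gene 17182, chr12:8954735-8978834, forward strand of mm9, 8 exons) encodes matrilin 3, in which mutations cause multiple epiphyseal dysplasia. SFZ cells held 94.1, 13.9 and 20.2 FPKM of Matn3 under R3-Cntl, against 54.96, 38.01 and 15.8 FPKM in SFZ libraries labelled R3-cKO. DZ cells held 379, 147 and 108 FPKM under R3-Cntl, against 203, 63.1 and 92.8 FPKM in DZ libraries labelled R3-cKO. Every DZ value exceeded the 3 SFZ values of its own genotype. Over both genotypes the zones overlapped, because R3-Cntl SFZ library 1 stood above DZ libraries 2 and 3 labelled R3-cKO. The DZ mean of 166 FPKM (SD 115, n = 6) was a rank of 345.

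Ucma (Entrez gene 68527, chr2:4897168-4906794, forward strand of mm9, 5 merged exons) had SFZ values of 338, 171 and 237 FPKM for R3-Cntl, against 425, 124 and 351 FPKM for SFZ libraries labelled R3-cKO. Ucma reached 910, 699 and 1381 FPKM in DZ cells of R3-Cntl, against 369, 361 and 1498 FPKM in DZ libraries labelled R3-cKO. The R3-Cntl zones did not overlap, whereas DZ libraries 1 and 2 labelled R3-cKO stood below SFZ library 1 of the same label. Ucma and Matn1 had similar means in SFZ cells, 274 FPKM (SD 116, n = 6) and 287 FPKM (SD 142, n = 6).

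Since these 3 genes were higher in DZ cells together, their promoters are shown, as given by RefSeq on GRCm38.p6 from 250 bases before to 50 bases after the annotated start. Of the 5 genes, 4 had an entry and Matn2 had none. Capitals mark TGTGGT, a core sequence bound by Runx proteins, on either strand (ACCACA on the other strand). Each run is written 5′ to 3′ on the strand of the gene.
Matn1, chr4:130944135-130944434, forward strand: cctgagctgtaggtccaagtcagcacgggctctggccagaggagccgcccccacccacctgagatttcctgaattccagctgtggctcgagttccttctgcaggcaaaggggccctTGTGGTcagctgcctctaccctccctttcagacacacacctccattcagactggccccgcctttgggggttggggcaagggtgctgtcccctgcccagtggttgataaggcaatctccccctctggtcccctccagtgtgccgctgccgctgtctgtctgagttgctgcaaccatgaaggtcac
Matn3, chr12:8947679-8947978, forward strand: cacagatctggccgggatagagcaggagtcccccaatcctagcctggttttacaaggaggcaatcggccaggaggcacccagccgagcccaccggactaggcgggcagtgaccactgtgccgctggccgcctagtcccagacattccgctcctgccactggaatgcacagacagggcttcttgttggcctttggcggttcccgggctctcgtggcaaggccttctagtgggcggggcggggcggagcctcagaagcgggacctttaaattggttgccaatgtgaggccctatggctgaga
Ucma, chr2:4975872-4976171, forward strand: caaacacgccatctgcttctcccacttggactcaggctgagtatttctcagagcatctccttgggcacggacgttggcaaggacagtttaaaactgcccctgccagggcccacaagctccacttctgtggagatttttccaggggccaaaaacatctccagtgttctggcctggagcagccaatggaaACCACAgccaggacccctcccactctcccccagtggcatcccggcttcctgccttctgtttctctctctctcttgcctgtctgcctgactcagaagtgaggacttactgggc
TGTGGT was found 1 time in the Matn1 promoter, on the strand of the gene and from 134 bases before the start, and 1 time in that of Ucma, on the opposite strand and from 62 bases before the start. Neither TGTGGT nor the variant TGCGGT occurred in the Matn3 window or in the 2 windows listed for Matn4. Among 32851 promoters of this length, 16.8% hold TGTGGT, 6.45% hold TGCGGT and 22.4% hold either one. The motifs ACAATG and ACAAAG, forms of the Sox core, and TATAAA were searched on both strands as well and occurred in none of the windows listed for members, against 28.6% of all promoters for either Sox form and 13.6% for TATAAA. A match of letters is a description and shows no binding.

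Matn2 (Entrez gene 17181, chr15:34236436-34366029, forward strand of mm9) encodes the matrilin found in many connective tissues and spans 130 kb, the longest of the 5 genes. Matn2 had SFZ values of 20.9, 14.3 and 9.37 FPKM for R3-Cntl, against 18.6, 8.89 and 12.2 FPKM for SFZ libraries labelled R3-cKO. DZ cells of R3-Cntl held 6.74, 7.29 and 8.77 FPKM of it, against 9.33, 5.53 and 5.70 FPKM in DZ libraries labelled R3-cKO. It was the lowest matrilin on average, with 5 of 6 DZ values below the lowest SFZ value and DZ library 1 labelled R3-cKO as the exception.

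Matn4 (Entrez gene 17183, chr2:164215129-164230660, reverse strand of mm9) encodes a matrilin made in cartilage and in other tissues. SFZ cells of R3-Cntl held 21.4, 30.1 and 15.4 FPKM of Matn4, against 32.6, 8.72 and 165 FPKM in SFZ libraries labelled R3-cKO. For DZ cells these were 16.2, 16.1 and 55.5 FPKM under R3-Cntl, against 7.89, 7.92 and 59.9 FPKM in DZ libraries labelled R3-cKO. The highest value, in SFZ library 3 labelled R3-cKO, was 20.9 times the lowest. Library 3 was also the highest in both DZ groups, at least 3.4 times above libraries 1 and 2, and the zones overlapped in both genotypes.

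**Figure D1:**
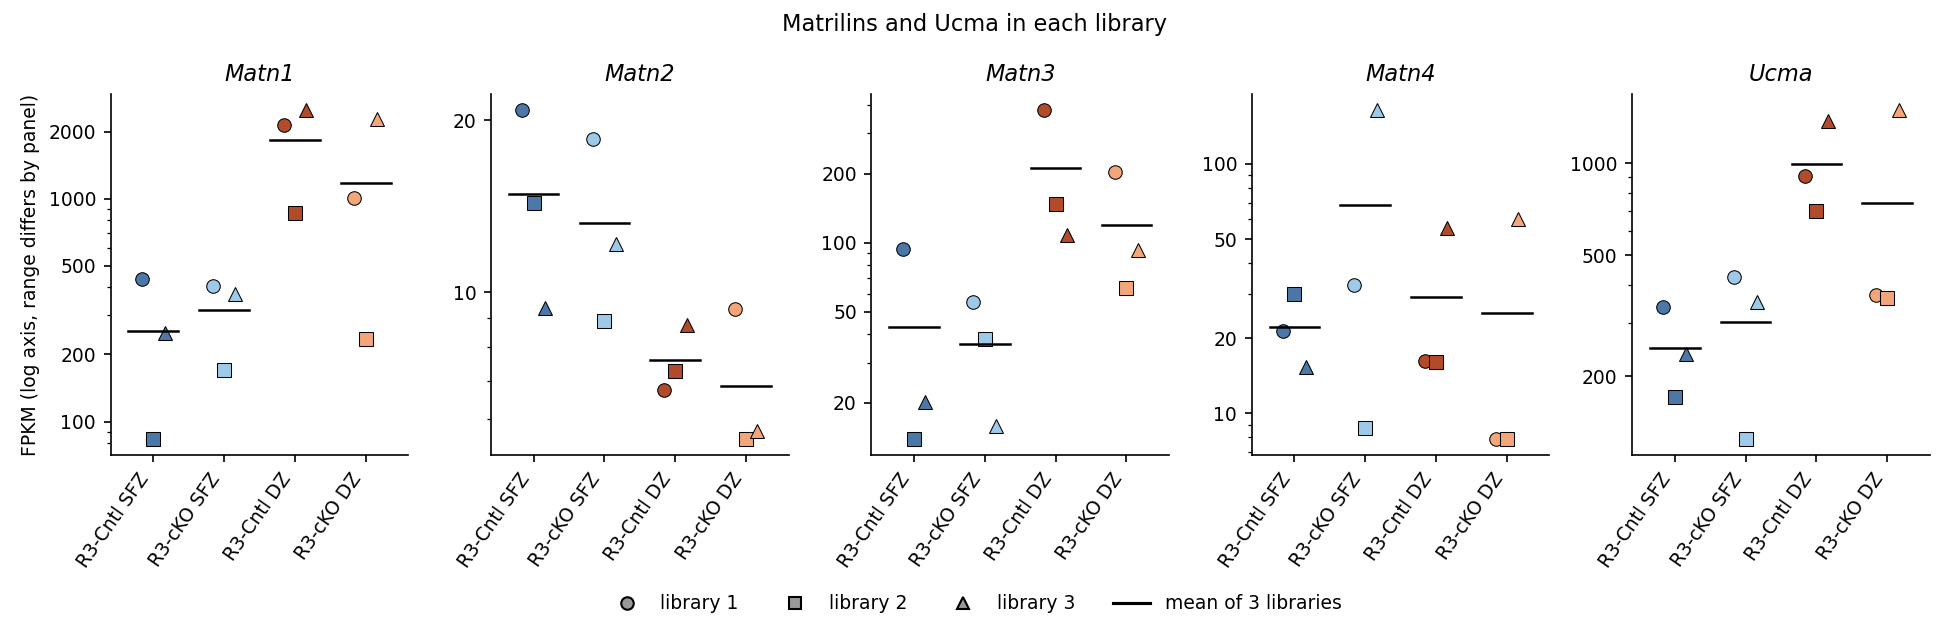
FPKM of Matn1, Matn2, Matn3, Matn4 and Ucma in each library on a log axis whose range differs by panel. Each symbol is 1 library, its shape gives the library number and its colour the group, and lines are means of 3 libraries. Matn1, Matn3 and Ucma are higher in DZ groups, Matn2 is lower there, and Matn4 is highest at 165 FPKM in SFZ library 3 labelled R3-cKO.

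Ordered by mean over all 12 libraries, the members stood at 895 FPKM for Matn1, 572 for Ucma, 103 for Matn3, 36.4 for Matn4 and 10.6 for Matn2. Matn1 exceeded Ucma in 4 of 6 SFZ and 5 of 6 DZ libraries. Within SFZ cells the order was the same up to Matn4, whose mean of 45.5 FPKM was raised above the 39.5 FPKM of Matn3 by SFZ library 3 labelled R3-cKO. In DZ cells Matn3 exceeded Matn4 in all 6 libraries.

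DZ and SFZ cells were then compared over both genotypes by limma on log2(FPKM + 1), with genotype and zone as terms for the 11765 genes that reached 1 FPKM in 3 or more libraries. All 5 members passed this filter. Fold changes on this scale understate the change of low genes. Matn1, Matn3 and Ucma were higher in DZ cells, which is 3 of 5 members beside 4.30% of all genes tested, and Matn2 was lower, 1 of 5 beside 18.9%. The log2 difference was 2.22 for Matn1 (standard error 0.61, limma adjusted p = 0.0239), a 4.66-fold higher level with a 95% interval of 1.85 to 11.8. It was 2.12 for Matn3 (standard error 0.53, adjusted p = 0.0157), 4.35-fold with an interval of 1.95 to 9.71, and 1.57 for Ucma (standard error 0.43, adjusted p = 0.0232), 2.97-fold with an interval of 1.55 to 5.68. Matn2 gave -0.83 (standard error 0.21, adjusted p = 0.0167) and Matn4 gave -0.49 (standard error 0.71, adjusted p = 0.649).

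The exact two-sided permutation test within genotypes, whose smallest possible p is 0.005 over 400 splits, gave p = 0.005 for Matn3, 0.01 for Matn2, 0.015 for Matn1, 0.02 for Ucma and 0.53 for Matn4. Its splits, like the limma fit above, treat SFZ and DZ libraries as independent, although the legend names 3 mice per genotype as the source of both. No member had 6 DZ values apart from all 6 SFZ values, which holds for 1.64% of genes in the higher and 9.71% in the lower direction. Within R3-Cntl, Matn1, Matn3 and Ucma had all 3 DZ values above all 3 SFZ values (5.90% of genes) and Matn2 had them below (26.7%). Within the libraries labelled R3-cKO this held for Matn3 alone among the members, beside 4.29% of genes in the higher and 17.4% in the lower direction. Taken by number there, Matn1 and Matn3 were higher in the DZ library of all 3 numbers, as were 15.4% of genes, and Matn2 and Matn4 were lower in all 3, as were 42.1% of genes, while Ucma was higher in 2 of 3. In bulk samples a smaller number of cells that make an RNA and less RNA per cell cannot be told apart.

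The whole table was shifted between zones. The median log2 difference of all genes was -0.14, and it became 0.03 under quantile normalization and -0.03 under median-of-ratios size factors, while the 2725 calls (506 higher and 2219 lower in DZ cells) became 2152 (1237 higher and 915 lower) and 2085 (886 higher and 1199 lower). Relative to the median, the differences were 2.36 for Matn1, 2.26 for Matn3, 1.71 for Ucma, -0.35 for Matn4 and -0.69 for Matn2. Matn2 missed the threshold under quantile normalization (log2 difference -0.66, limma adjusted p = 0.0519) and passed it under median-of-ratios size factors (-0.71, adjusted p = 0.0369). The call of Matn1 was lost without R3-Cntl SFZ library 2 (adjusted p = 0.0538), R3-Cntl DZ library 1 (0.0567) or DZ library 3 labelled R3-cKO (0.0532), and that of Ucma without R3-Cntl SFZ library 2 (0.0610) or R3-Cntl DZ library 1 (0.0501). The difference of Matn4 became 0.06 without SFZ library 3 labelled R3-cKO, and the number of genes called became 1624 without R3-Cntl SFZ library 2.

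The 14 genes of matrix proteins that matrilins bind or join were read beside them. Their median log2 difference was 1.21, with 7 of them higher and 3 lower in DZ cells. Acan, the core protein of aggrecan, rose by 2.11 (standard error 0.42, limma adjusted p = 0.0061), Col9a1 by 1.66 (0.37, adjusted p = 0.00973), Comp by 1.07 (0.31, adjusted p = 0.0311) and the link protein gene Hapln1 by 1.23 (0.35, adjusted p = 0.0286). Col2a1, at 3049 to 9229 FPKM in SFZ and 11248 to 22791 FPKM in DZ libraries, rose by 1.57 (0.30, adjusted p = 0.00531), a call that was lost under quantile normalization (0.77, adjusted p = 0.158). Bgn, the biglycan gene, and the collagen VI genes Col6a1 and Col6a2 were lower by -0.61, -0.40 and -0.57, and 0 of these 3 calls were made under either other scaling. Of the list 0 genes were called lower without R3-Cntl SFZ library 2 or R3-Cntl DZ library 1 or 2, and 1 without SFZ library 1 or DZ library 3 of R3-Cntl, SFZ library 1 or 2 labelled R3-cKO or DZ library 3 of that label. Dcn, the decorin gene, gave 1.19 (standard error 0.40, adjusted p = 0.0507).

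Besides collagen VI, whose chains were read above, 4 other genes of matrix proteins with von Willebrand factor A domains, the module shared by all matrilins, were read, and these 4 were scarce. Coch, Vwa1 and Vwa2 did not pass the filter, and Vit, the vitrin gene, was at 2.59 to 13.6 FPKM in SFZ and 0.50 to 5.47 FPKM in DZ libraries (log2 difference -0.80, standard error 0.41, limma adjusted p = 0.175). Their 4 genes summed to at most 15.1 FPKM in a library, against 142 to 2672 FPKM for the 4 matrilins.

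Ucma is modified by the vitamin K cycle, so the carboxylase and its partners were read with the other vitamin K-dependent genes. Ggcx, the gamma-glutamyl carboxylase gene, was at 19.0 to 25.3 FPKM in SFZ and 20.3 to 27.5 FPKM in DZ libraries (log2 difference 0.09, standard error 0.10, limma adjusted p = 0.574). Vkorc1, which regenerates reduced vitamin K, was at 114 to 247 FPKM over all libraries (0.32, standard error 0.18, adjusted p = 0.230). With a median of -0.64, 0 of the 8 genes were higher in DZ cells and 4 were lower. A block for the replicate number within each genotype gave 1 of them called higher and 4 lower. The lower genes were Bglap and Bglap2, which encode osteocalcin (-2.26 and -2.20), the growth arrest-specific gene Gas6 (-2.32) and the protein S gene Pros1 (-0.63, no call under either other scaling). Mgp, the matrix Gla protein gene, was at 683 to 3583 FPKM in SFZ and 266 to 3157 FPKM in DZ libraries (-0.65, standard error 0.56, adjusted p = 0.425). Among the vitamin K-dependent genes read here, Ucma was the 1 called higher in DZ cells in the fit without a block. Its difference from the others was not tested.

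Among 9 transcription factors reported to act on Matn1 or Ucma, the 3 Sox genes were higher in DZ cells. Sox9, Sox5 and Sox6 gave log2 differences of 0.80, 0.54 and 0.72 (limma adjusted p = 0.00767, 0.0164 and 0.00273). Nfia, Nfib and Nfix of the nuclear factor I family were lower (-0.68, -1.17 and -0.75), and so was Runx2 (-0.44, adjusted p = 0.0107). Under quantile normalization the calls of Nfia (adjusted p = 0.0518) and Runx2 (0.0734) were lost. The median of this list was -0.22. Of the 3 Runx genes and their binding partner Cbfb, Runx2 was the 1 gene called (2 of the 4 were without SFZ library 2 labelled R3-cKO, R3-Cntl DZ library 2 or DZ library 2 labelled R3-cKO), and Runx3 itself gave 0.54 (standard error 0.27, adjusted p = 0.161). A block for the replicate number within each genotype gave 1 of the 4 called higher and 1 lower.

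Of the 12 growth plate and hypertrophic cartilage genes, 5 rose with depth and 0 fell (1 without R3-Cntl SFZ or DZ library 3), and the list had a median of 0.92. The 5 were Epyc, Snorc, Fgfr3, Cnmd and Pth1r, with log2 differences of 3.05, 2.01, 1.53, 1.25 and 1.10. Col10a1, the marker of hypertrophic chondrocytes, was at 3.67 to 255 FPKM in SFZ and 59.2 to 793 FPKM in DZ libraries (2.24, standard error 0.89, limma adjusted p = 0.0913). In DZ cells Col10a1 was lowest in library 3 of both genotypes (68.8 and 59.2 FPKM), the libraries in which Matn1 and Ucma were highest. The part of fibroblast and tendon transcripts in the zone differences of the members was not tested.

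**Figure D2:**
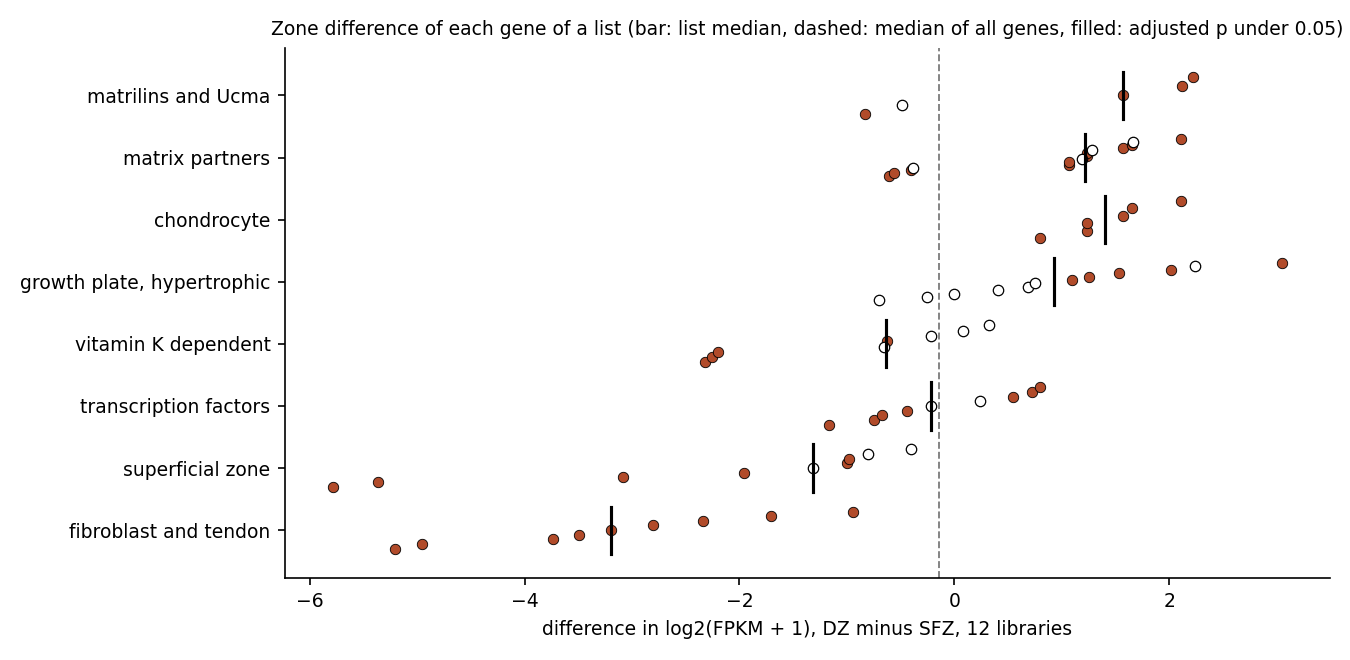
Difference in log2(FPKM + 1) between DZ and SFZ cells for each gene of a list over 12 libraries, with filled points for limma adjusted p under 0.05, a bar at each list's median and a dashed line at the median of all genes (-0.14). Matn1, Matn3 and Ucma stand at 2.22, 2.12 and 1.57, beside a median of 1.41 and a highest value of 2.11 (Acan) for the 6 chondrocyte markers, while fibroblast and tendon markers have a median of -3.20. Some genes stand in more than 1 list.

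SFZ and DZ libraries were each fitted in limma with genotype as the only term. In SFZ cells 0 of 5 members and 0 of 11537 genes (0%) reached an adjusted p under 0.05, and 34 genes had an unadjusted p under 0.05. The last count was 1204 without SFZ library 2 labelled R3-cKO, 101 without R3-Cntl SFZ library 1 and 12 without SFZ library 3 labelled R3-cKO, with 0 genes called in each case. The log2 differences between libraries labelled R3-cKO and R3-Cntl were 0.51 for Matn1 (standard error 0.65), -0.15 for Matn2 (0.35), 0.10 for Matn3 (0.78), 0.75 for Matn4 (0.98) and 0.15 for Ucma (0.51), and all 5 intervals included 0. The sign of each difference turned without 1 library. Without R3-Cntl SFZ library 2, Matn1, Matn3 and Ucma gave -0.15, -0.43 and -0.09, and without SFZ library 1 labelled R3-cKO, Matn3 and Ucma gave -0.28 and -0.19. Leaving out SFZ library 3 labelled R3-cKO turned Matn4 to -0.32 and Ucma to -0.05, and leaving out library 2 of that group turned Matn2 to 0.08 and Matn3 to -0.02. Matn3 gave -0.18 without R3-Cntl SFZ library 3, and Matn2 gave 0.12 without R3-Cntl SFZ library 1. For all 5 members the values of both genotypes overlapped, as they did for all but 2.40% of genes, and exact two-sided permutation tests gave p from 0.7 to 0.9, with 0.1 the smallest p that 3 against 3 libraries allow.

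In DZ cells 0 of 5 members and 0 of 11091 genes (0%) reached the threshold, and 404 genes had an unadjusted p under 0.05. That count was 211, 239 and 773 without DZ libraries 2, 1 and 3 labelled R3-cKO and 222 without R3-Cntl DZ library 1, and 0 genes were called in each case. All 5 log2 differences were negative, at -1.03 for Matn1 (95% interval -3.06 to 0.99), -0.16 for Matn2 (-0.66 to 0.34), -0.77 for Matn3 (-2.16 to 0.62), -0.59 for Matn4 (-2.64 to 1.45) and -0.71 for Ucma (-2.12 to 0.69). Their median was -0.71, against 0.05 for all genes, -0.35 for the 14 matrix partners and -0.50 for the 6 chondrocyte markers. Each of these intervals, from the fit without pairing, includes 0. The size of each difference depended on single libraries. Matn1, Matn2 and Ucma gave -0.13, -0.04 and -0.36 without DZ library 2 labelled R3-cKO, Matn3 gave -0.24 without R3-Cntl DZ library 1, and Matn4 gave -0.02 without R3-Cntl DZ library 3. In the other direction Matn1, Matn4 and Ucma gave -1.77, -1.52 and -1.39 without DZ library 3 labelled R3-cKO, and Matn2 and Matn3 gave -0.37 and -1.24 without library 1 of that group. The groups overlapped for all 5 members, while 8.03% of genes had groups that did not, and the exact permutation p lay between 0.4 and 0.6.

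Deviations from the group mean were alike in DZ libraries that share a number, so the values of each number were also set side by side. The DZ libraries labelled R3-cKO held 47.3, 27.1 and 91.1% of the Matn1 value of R3-Cntl in numbers 1, 2 and 3, and 53.7, 42.9 and 86.1% of that of Matn3. Both genes were thus lower in all 3 numbers, as were 13.4% of all genes. For Ucma the shares were 40.5, 51.7 and 108%, for Matn4 48.7, 49.3 and 108%, and for Matn2 138, 75.9 and 65.0%. The lower values of Matn1, Matn3, Matn4 and Ucma came from numbers 1 and 2, and number 3 differed by less than 14% in each of these genes. With the number as a block, 1830 of 11091 genes had an unadjusted p under 0.05. The unadjusted 95% intervals of this fit were -1.88 to -0.18 for Matn1, -1.27 to -0.27 for Matn3 and -1.17 to -0.01 for Matn4, which leave out 0. They were -1.43 to 0.01 for Ucma and -0.66 to 0.35 for Matn2, which include 0. Over all genes the adjusted p-values of this paired fit in limma were 0.255, 0.210, 0.299, 0.307 and 0.726 in this order, so 0 members were called. In the paired fit 1830 genes had an unadjusted p under 0.05 and 0 were called.

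**Figure D3:**
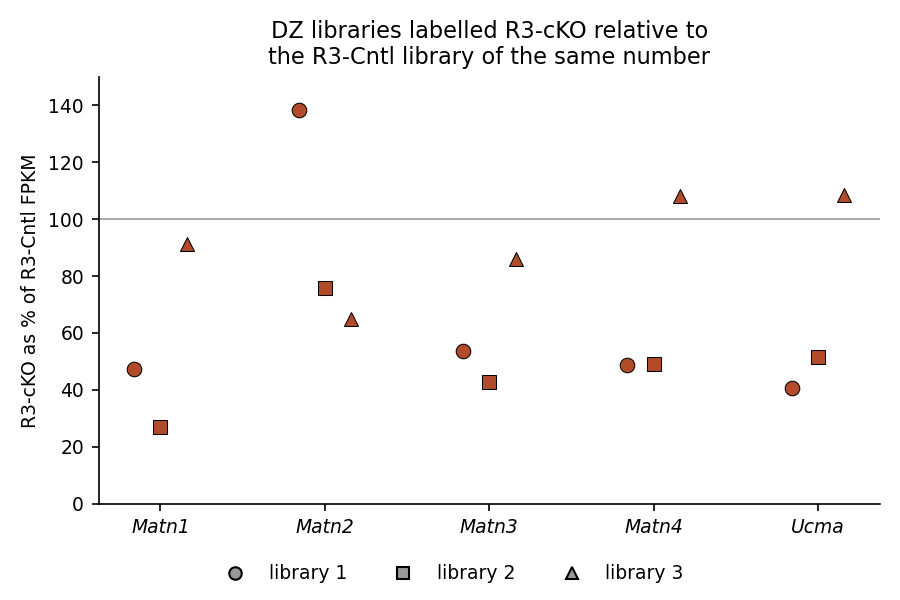
FPKM of each DZ library labelled R3-cKO as a percentage of the R3-Cntl DZ library of the same number, with 1 symbol per number and a line at 100%. Matn1 and Matn3 are below 100% in all 3 numbers, and number 3 is near 100% for Matn1, Matn3, Matn4 and Ucma.

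Whether the genotypes differed by unlike amounts in SFZ and DZ cells was tested as an interaction in the 12 libraries, and 0 of 5 members and 0 of 11765 genes (0%) passed the adjusted threshold in limma, with 99 genes at an unadjusted p under 0.05. This count became 421, 36 and 52 without R3-Cntl SFZ libraries 1, 2 and 3, 714 and 55 without SFZ libraries 2 and 3 labelled R3-cKO, 55 and 174 without R3-Cntl DZ libraries 1 and 2, and 62 and 329 without DZ libraries 2 and 3 labelled R3-cKO, with 0 genes called in each case. The estimates were -1.54 for Matn1 (95% interval -4.16 to 1.08), -0.01 for Matn2 (-0.98 to 0.96), -0.87 for Matn3 (-3.24 to 1.51), -1.34 for Matn4 (-4.53 to 1.84) and -0.86 for Ucma (-2.75 to 1.03). Without single libraries Matn1 ranged from -2.28 (DZ library 3 labelled R3-cKO) to -0.64 (DZ library 2 of that label), and Ucma, by leaving out the same libraries, from -1.54 to -0.51. Matn3 ranged from -1.67 (R3-Cntl SFZ library 1) to -0.34 (R3-Cntl SFZ library 2), and Matn4 from -2.32 to -0.28 (SFZ libraries 2 and 3 labelled R3-cKO). The estimate of Matn2 turned positive without R3-Cntl SFZ library 3 (0.27), SFZ library 1 labelled R3-cKO (0.25), R3-Cntl DZ library 3 (0.09) or DZ libraries 2 and 3 labelled R3-cKO, each left out alone (0.11 and 0.09). With the number within each genotype as a block, the interval of Matn1 was -2.90 to -0.18, which leaves out 0 (limma adjusted p = 0.603). In that fit 949 of 11765 genes had an unadjusted p under 0.05. The block sets SFZ beside DZ libraries of the same number, which within R3-Cntl gave r of 0.58, 0.11 and -0.15. The blocked interval of Matn1 thus rests on a pairing that is in doubt. The blocked intervals of Matn2, Matn3, Matn4 and Ucma include 0. The intervals without the block are wide, and the SFZ and DZ differences of no member are shown to be unlike. Between the labels, the 4 Y-linked genes had a median log2 difference of -1.93 in SFZ and -1.53 in DZ cells, with 0 called in either zone. They summed to 28.3 and 29.6 FPKM in SFZ and DZ library 1 labelled R3-cKO, against 12.1 and 16.8 FPKM in R3-Cntl library 2. The part of sex in the genotype values was not tested.

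**Figure D4:**
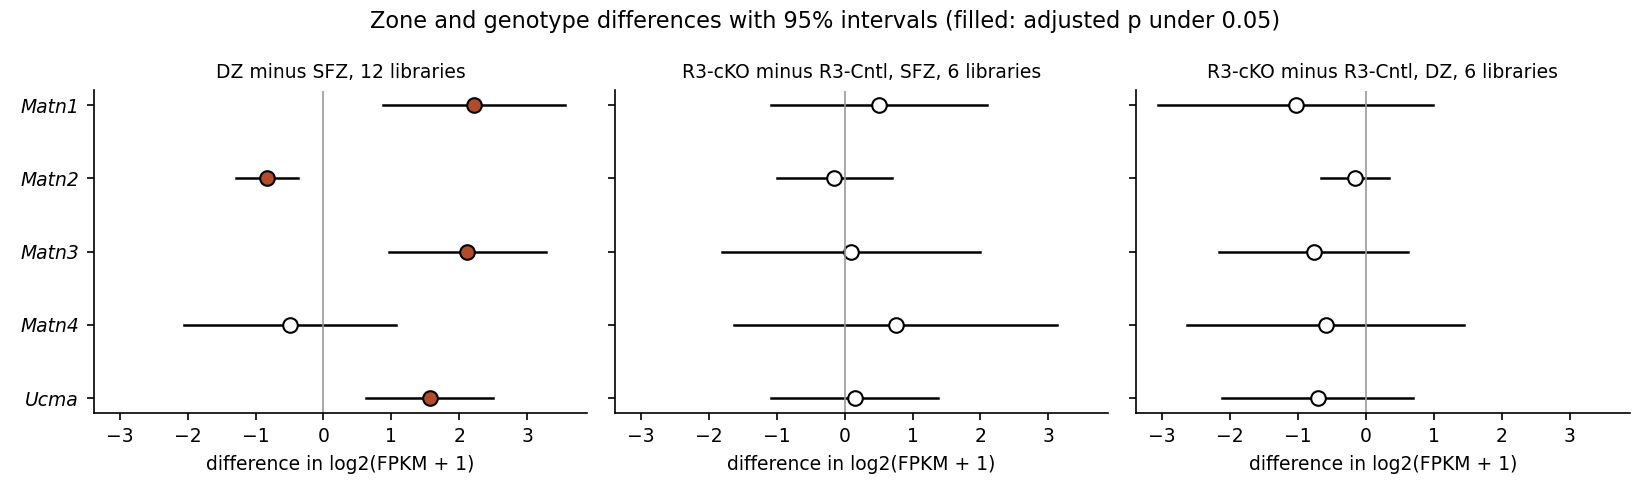
Differences in log2(FPKM + 1) of the 5 genes with 95% intervals from limma, between zones over 12 libraries and between genotypes in 6 libraries per zone. Filled points mark an adjusted p under 0.05, which Matn1, Matn2, Matn3 and Ucma reach between zones and no member reaches between genotypes.

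The members varied widely between libraries of the same group. Over the 3 libraries of a group, the SD of log2(FPKM + 1) had a median of 0.16 to 0.23 over 11765 genes, whereas that of Matn1 was 0.69 to 1.66, of Matn3 0.85 to 1.42, of Matn4 0.46 to 2.05 and of Ucma 0.49 to 1.18. For Matn1 this is a larger SD than 90.9 to 99.8% of genes, and for Matn3 than 94.9 to 99.5%. Matn2 had SDs of 0.54, 0.50, 0.17 and 0.37 in R3-Cntl SFZ, R3-cKO SFZ, R3-Cntl DZ and R3-cKO DZ libraries, larger than 90.6, 82.8, 41.2 and 79.4% of genes. It was the lowest of the 5 SDs in all groups but R3-Cntl SFZ, where Matn4 (0.46) and Ucma (0.49) were lower.

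The proportions of the members within a library differed too. In DZ libraries 1, 2 and 3 the ratio of Matn3 to Matn1 was 0.18, 0.17 and 0.04 under R3-Cntl, against 0.20, 0.27 and 0.04 where the label was R3-cKO. For SFZ cells the same ratio was 0.22, 0.17 and 0.08 under R3-Cntl, against 0.14, 0.22 and 0.04 where the label was R3-cKO. Library 3 had the lowest ratio in each of the 4 groups, but in R3-Cntl SFZ cells it is in doubt which library is number 2 and which is 3, and every value here follows the deposited labels. Ucma stood at 0.37 to 1.54 of the Matn1 level in DZ and at 0.73 to 2.04 in SFZ libraries, highest in R3-Cntl SFZ library 2 and next in DZ library 2 labelled R3-cKO, the libraries of the lowest Matn1 value in their zone. Matn1 made up 75.3 to 93.6% of the summed matrilin FPKM in DZ and 58.9 to 84.7% in SFZ libraries, and Matn4 made up 21.2% in R3-Cntl SFZ library 2 and 29.0% in SFZ library 3 labelled R3-cKO.

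**Figure D5:**
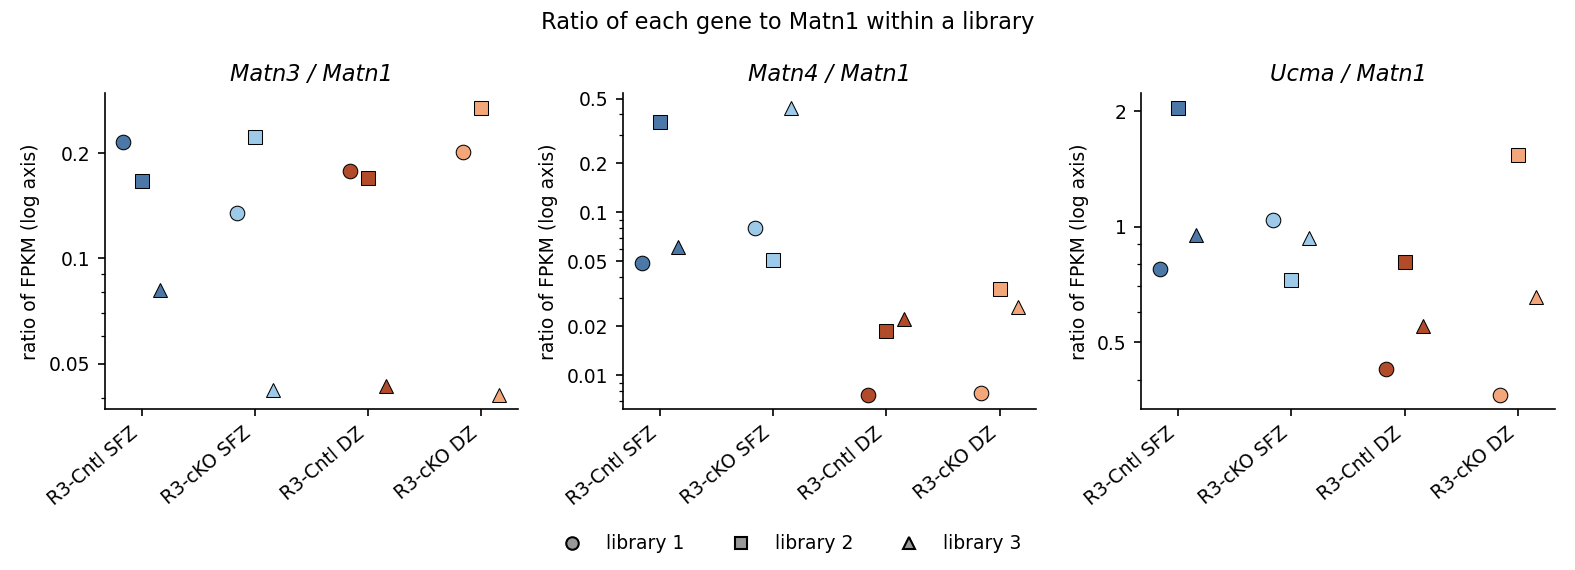
Ratio of the FPKM of Matn3, Matn4 and Ucma to that of Matn1 in each library on log axes, with the library number given by the symbol's shape. The ratio of Matn3 to Matn1 is 0.04 in 3 of the 4 libraries of number 3 and 0.08 in the other, R3-Cntl SFZ library 3, whose number is in doubt.

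Across the 12 libraries, log2(FPKM + 1) of Matn1 and Ucma had a Pearson r of 0.92, and after the mean of each zone was removed r was 0.83 (0.82 within the 6 SFZ and 0.83 within the 6 DZ libraries). Matn4 and Ucma had an r of 0.96 within DZ and of 0.60 within SFZ libraries. Matn1 and Matn3, which can form mixed oligomers, had an r of 0.78 that fell to 0.50 without the zone means, and Matn3 and Ucma had 0.63 and 0.17. Matn3 and Matn4 gave negative values, -0.35 over all libraries and -0.30 without zone means. These values describe the 12 libraries and carry no test.

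The genes with the highest r to each member over 12 libraries were found among 11764 others. For Matn3 they were Papss2, which makes the sulfate donor for proteoglycans, Gfpt2 of the hexosamine pathway, Flvcr2, Mgat4a and the glycogen phosphorylase gene Pygl, with r from 0.98 to 0.99 and from 0.96 to 0.97 after removal of zone means. Papss2 averaged 125 FPKM in SFZ and 392 FPKM in DZ libraries. For Matn1 they were Usp53, Atl1, Cpne8, Hspa2 and Plekhb1 (r from 0.96 to 0.97, and 0.91 to 0.95 without zone means), of which Cpne8, a calcium-dependent membrane-binding protein, was the most abundant at 41.1 and 61.3 FPKM. For Ucma they were Golph3 and Gorasp1, which encode proteins of the Golgi, the zinc transporter gene Slc30a9, Gprc5c and Rgl3, with r from 0.95 to 0.96.

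For Matn4 the nearest genes were Gstm5, Txnip, Plod1, Tcp11l2 and Klhdc8b (r from 0.95 to 0.97), and r did not fall without zone means except for Klhdc8b (0.954 and 0.952). Plod1, a lysyl hydroxylase of collagens, averaged 82.8 FPKM in SFZ and 76.6 FPKM in DZ libraries. For Matn2 they were Cfp, Lenep, Prph, Wdr91 and Kansl1l (r from 0.95 to 0.97, and 0.87 to 0.92 without zone means), each with a mean below 6 FPKM in both zones. No gene was among the 5 nearest of more than 1 member.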

How the data were processed

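The deposited FPKM values of 12 mouse RNA-seq libraries were used, 3 for each genotype and zone, with 0 columns left unmapped. The authors sequenced paired-end reads on a BGISEQ-500 and mapped them to mm9, and the submitters' processing notes name Bowtie 0.12.2. The unit, FPKM scaled by TMM and not log-transformed, is inferred from the deposited values, and depth is an estimate from their lowest steps. The authors' quantile normalization and log2 CPM models are not in these values.

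Values were analysed as log2(FPKM + 1), and a gene entered a comparison if 3 or more of its libraries reached 1 FPKM. Linear models, moderated by empirical Bayes and with the variance following the mean, were fitted in R 4.3.3 with limma 3.58.1, with Benjamini-Hochberg adjustment over all genes tested, and genes were called at an adjusted p under 0.05. The fitting was tested on simulated data. Exact permutation tests were two-sided. Positions were taken from the GENCODE annotation of mm9 and promoters from RefSeq. Python 3.11.15, pandas 2.3.3, NumPy 2.4.6 and matplotlib 3.10.9 were used for the rest.

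Genes are named if they are members, belong to a list or are among the 5 of highest Pearson r to a member among those that passed the filter over 12 libraries. The members and lists were chosen with earlier results of these data known. Snorc was matched by its gene ID. Other settings were pseudocounts of 0.1 and 5, no filter, size factors by median of ratios and quantile normalization. Further ones were a block for the replicate number, a single model of 12 libraries and each library left out. In zone and interaction fits the block was the number within each genotype. The zone comparison within each genotype, for R3-cKO also with the block, was added after seeing the data.

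Pairing was checked by correlating deviations from group means over the 11359 genes whose mean reached 1 FPKM. Across genotypes in DZ cells, same-number libraries gave r of 0.65, 0.78 and 0.69, so the numbers were read as pairs there. This pairing was inferred from the same data, as the sample titles give numbers alone.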

Additional observations from a re-analysis of the deposited data

How the results depend on the processing

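Of 325 values of the 5 members under other settings, 289 kept their direction and their side of the limma threshold, 17 lost the call and 19 changed sign. Between zones, Matn2 under quantile normalization gave -0.66. In the R3-Cntl libraries alone 140 genes were called, and Matn1, Matn2, Matn3 and Ucma gave 2.99, -0.82, 2.56 and 1.998 without a call, and Matn4 gave 0.18. In the libraries labelled R3-cKO alone 2 genes were called, these 4 members gave 1.45, -0.83, 1.69 and 1.14 without a call, and Matn4 gave -1.16, the other sign than in R3-Cntl. With the number as a block, since zones of 1 number gave r of 0.42, 0.78 and 0.65 there, 352 genes were called, Matn2 among them (adjusted p = 0.0438), and Matn1 (0.111), Matn3 (0.0696), Ucma (0.180) and Matn4 (0.122) were not. These fits, added after seeing the data, have 6 libraries in place of 12. Leaving out each library in turn gave 1624 to 2899 genes called between zones, 1.84 to 2.70 for Matn1, 1.31 to 1.77 for Ucma and -0.85 to 0.0578 for Matn4. Between genotypes in SFZ cells it gave -0.15 to 1.04 for Matn1, -0.42 to 0.12 for Matn2, -0.43 to 0.90 for Matn3, -0.32 to 1.73 for Matn4 and -0.19 to 0.69 for Ucma. In DZ cells all 65 values under other settings stayed negative, and without single libraries they ran from -1.77 to -0.13 for Matn1, -0.37 to -0.04 for Matn2, -1.24 to -0.24 for Matn3, -1.52 to -0.02 for Matn4 and -1.39 to -0.36 for Ucma. The interaction of Matn2 ranged from -0.27 to 0.27 without single libraries and was 0.0185 with a pseudocount of 5. The causes were not tested.

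The replicate number was a block in genotype fits, and the number within each genotype in zone and interaction fits. With these blocks, 3965 genes were called between zones and 0 in the other 3 comparisons. In those 3, 51 (SFZ), 1830 (DZ) and 949 (interaction) genes fell under 0.05 before adjustment. The blocks changed no call of a member in these 4 comparisons. Across genotypes in SFZ cells same-number libraries gave r of 0.79, -0.09 and -0.42, and zones of 1 number within R3-Cntl gave 0.58, 0.11 and -0.15, so numbers are not read as pairs there or between zones over both genotypes. Not every library correlated best with its own number. R3-Cntl SFZ library 3 had r of 0.69 with SFZ library 2 labelled R3-cKO and 0.58 with R3-Cntl DZ library 2, and R3-Cntl SFZ library 2 had 0.45 with SFZ library 3 labelled R3-cKO and 0.38 with R3-Cntl DZ library 3. If these 2 numbers were exchanged, the values given for R3-Cntl SFZ libraries 2 and 3 would belong to each other's number, while group means and tests without a block would not change. Values are FPKM without counts, so counting error is only estimated, and 3 libraries per group leave the wide intervals given above.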
